A study of Mus musculus with 4 samples.

Results

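The nuclear genes of oxidative phosphorylation were followed in primary mouse embryonic fibroblasts transfected with siRNA to Xpo5, which encodes Exportin-5, a carrier of RNA out of the nucleus, or with a negative control siRNA. The members were taken by gene name from the array's own annotation: names that start with Nduf, Uqcr or Atp5, the Cox4 to Cox8 names and Sdha to Sdhd. This gave 88 of the 28095 gene names on the array. Of these, 36 were complex I subunits and 4 complex I assembly factors with an Ndufaf name. There were 4 complex II, 7 complex III, 19 complex IV and 15 complex V subunits. The other 3, Atp5s (now Dmac2l), Atp5sl (now Dmac2) and Cox4nb (now Emc8), carry the prefix but are no subunits. They are left out of the values for each complex but are counted among the members. Ndufa4 is counted with complex IV, the complex in which its protein is found. Where a gene had several probes, the one with the highest mean signal stood for it.

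Each group held 2 arrays of total RNA, Xpo5 siRNA replicates 1 and 2 and control siRNA replicates 1 and 2. All cells were wild-type C57BL/6 cells grown in medium with 10% fetal calf serum, and both groups received 60 nM of siRNA for 12 h, starvation in 0.2% serum for 48 h, and 20% serum for 24 h together with a second transfection. The series describes 2 independent experiments, but whether they used different embryos is not stated, so that p values measure only the spread between these samples. As RNA was taken from whole cultures, fewer cells of a type and less RNA per cell cannot be told apart.

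Oxidative phosphorylation passes electrons from NADH, through complex I, and from succinate, through complex II, to complexes III and IV and on to oxygen. Complexes I, III and IV pump protons across the inner mitochondrial membrane, and complex V lets the protons flow back to make ATP. Complexes I, III, IV and V are built from subunits of both the nuclear and the mitochondrial genome, whereas all complex II subunits are nuclear. Many of the nuclear genes share binding motifs for the transcription factors NRF1, the ETS factor GABP and YY1, and in growing fibroblasts they are expressed broadly alongside glycolysis. The microRNA precursors that Exportin-5 carries out of the nucleus are one layer of control of messenger RNAs in general.

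Levels below are the log2 processed signal minus the 75th percentile of the array, and a difference is Xpo5 siRNA minus control siRNA on that log2 scale with its standard error (SE). The targeted gene set the check of the labels. Xpo5 was at -1.95 and -1.93 in the Xpo5 siRNA arrays and at 1.31 and 1.26 in the control siRNA arrays. By this brightest probe its messenger RNA was therefore at 10.7% of control, whereas the mean of its probes gave a smaller fall, with a difference of -2.55. The brightest probe's difference was -3.23 ± 0.13, with a limma adjusted p of 0.0216. This call was lost without control siRNA replicate 1 (adjusted p of 0.0606), Xpo5 siRNA replicate 1 (0.12) or Xpo5 siRNA replicate 2 (0.104), with the difference staying between -3.25 and -3.20. Over all 16912 gene names tested, 2 (0.0118%) passed the adjusted threshold of 0.05, Xpo5 and Ugt2b38, and 2230 (13.2%) had an unadjusted p under it. Ugt2b38 was well above background on 0 control siRNA arrays, at -8.18 and -8.28, and was kept only through the Xpo5 siRNA arrays, where it was high. With a filter on all 4 arrays 1 gene was called. From 62.4% to 65% of the spots of an array were well above background. All 10 fibroblast markers were well measured, with summed linear signals of 1900 and 1750 times the 75th percentile in Xpo5 siRNA arrays and 1750 and 1580 times in control siRNA arrays. The 14 macrophage markers tested were higher in both replicates, summing to 87.3 and 74.5 times the 75th percentile in Xpo5 siRNA arrays against 61.8 and 44.2 times in control siRNA arrays, with 0 called and 9 at an unadjusted p under 0.05. The part of these markers in the member values was not tested.

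Of the 88 members, 84 were well above background on all 4 arrays and were tested. The other 4 were tissue-restricted complex IV isoforms described below. By limma with Benjamini-Hochberg adjustment 0 of the 84 were called, beside 0.0118% of all genes, and 3 had an unadjusted p under 0.05 (3.57% of members, beside 13.2% of all genes). All 3 were lower, beside 5.35% of all genes for that direction, and 0 were higher, beside 7.84%. Of the 77 subunits of complexes I to V tested, 1 (1.3%) was among them, Ndufa8. The others were the assembly factor Ndufaf4 and the non-subunit Cox4nb. The groups did not overlap for 14 members with Xpo5 siRNA lower, beside 22.5% of all genes, and for 13 with it higher, beside 23.6%. In the estimates 46 members were higher and 38 lower, with a median difference of 0.01 beside 0.00 for all genes tested. Scaling each array to its median, as the deposited table does, moved the median of all genes to -0.10. The member split became 17 higher and 67 lower. Such scaling shifts every gene by the same amount, so the members' median had to stay 0.01 above that of all genes. Under another background correction (normexp) 78 members were lower and 6 higher. Their median then differed from that of all genes by -1.29, and by -0.05 once spots of uneven local background were left out.

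The members also differed little among themselves. The quartiles of their differences were -0.09 and 0.09, against -0.17 and 0.20 for all genes, and the standard deviation of the differences was 0.16, against 0.36. A difference of more than 0.5 in either direction was estimated for 1 of the 84 (1.19%), against 2170 of all genes (12.8%). The 95% confidence interval of the difference lay within 2-fold in both directions for 83 of the 84 (98.8%), against 82.1% of all genes, and within 1.5-fold for 59 (70.2%), against 39.6%. Probe signals of the members were also brighter than most, with median levels of 4.75 to 5.00 over the 4 arrays against -0.19 to -0.16 for all genes, and the part of brightness in these shares was not tested.

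**Figure D1:**
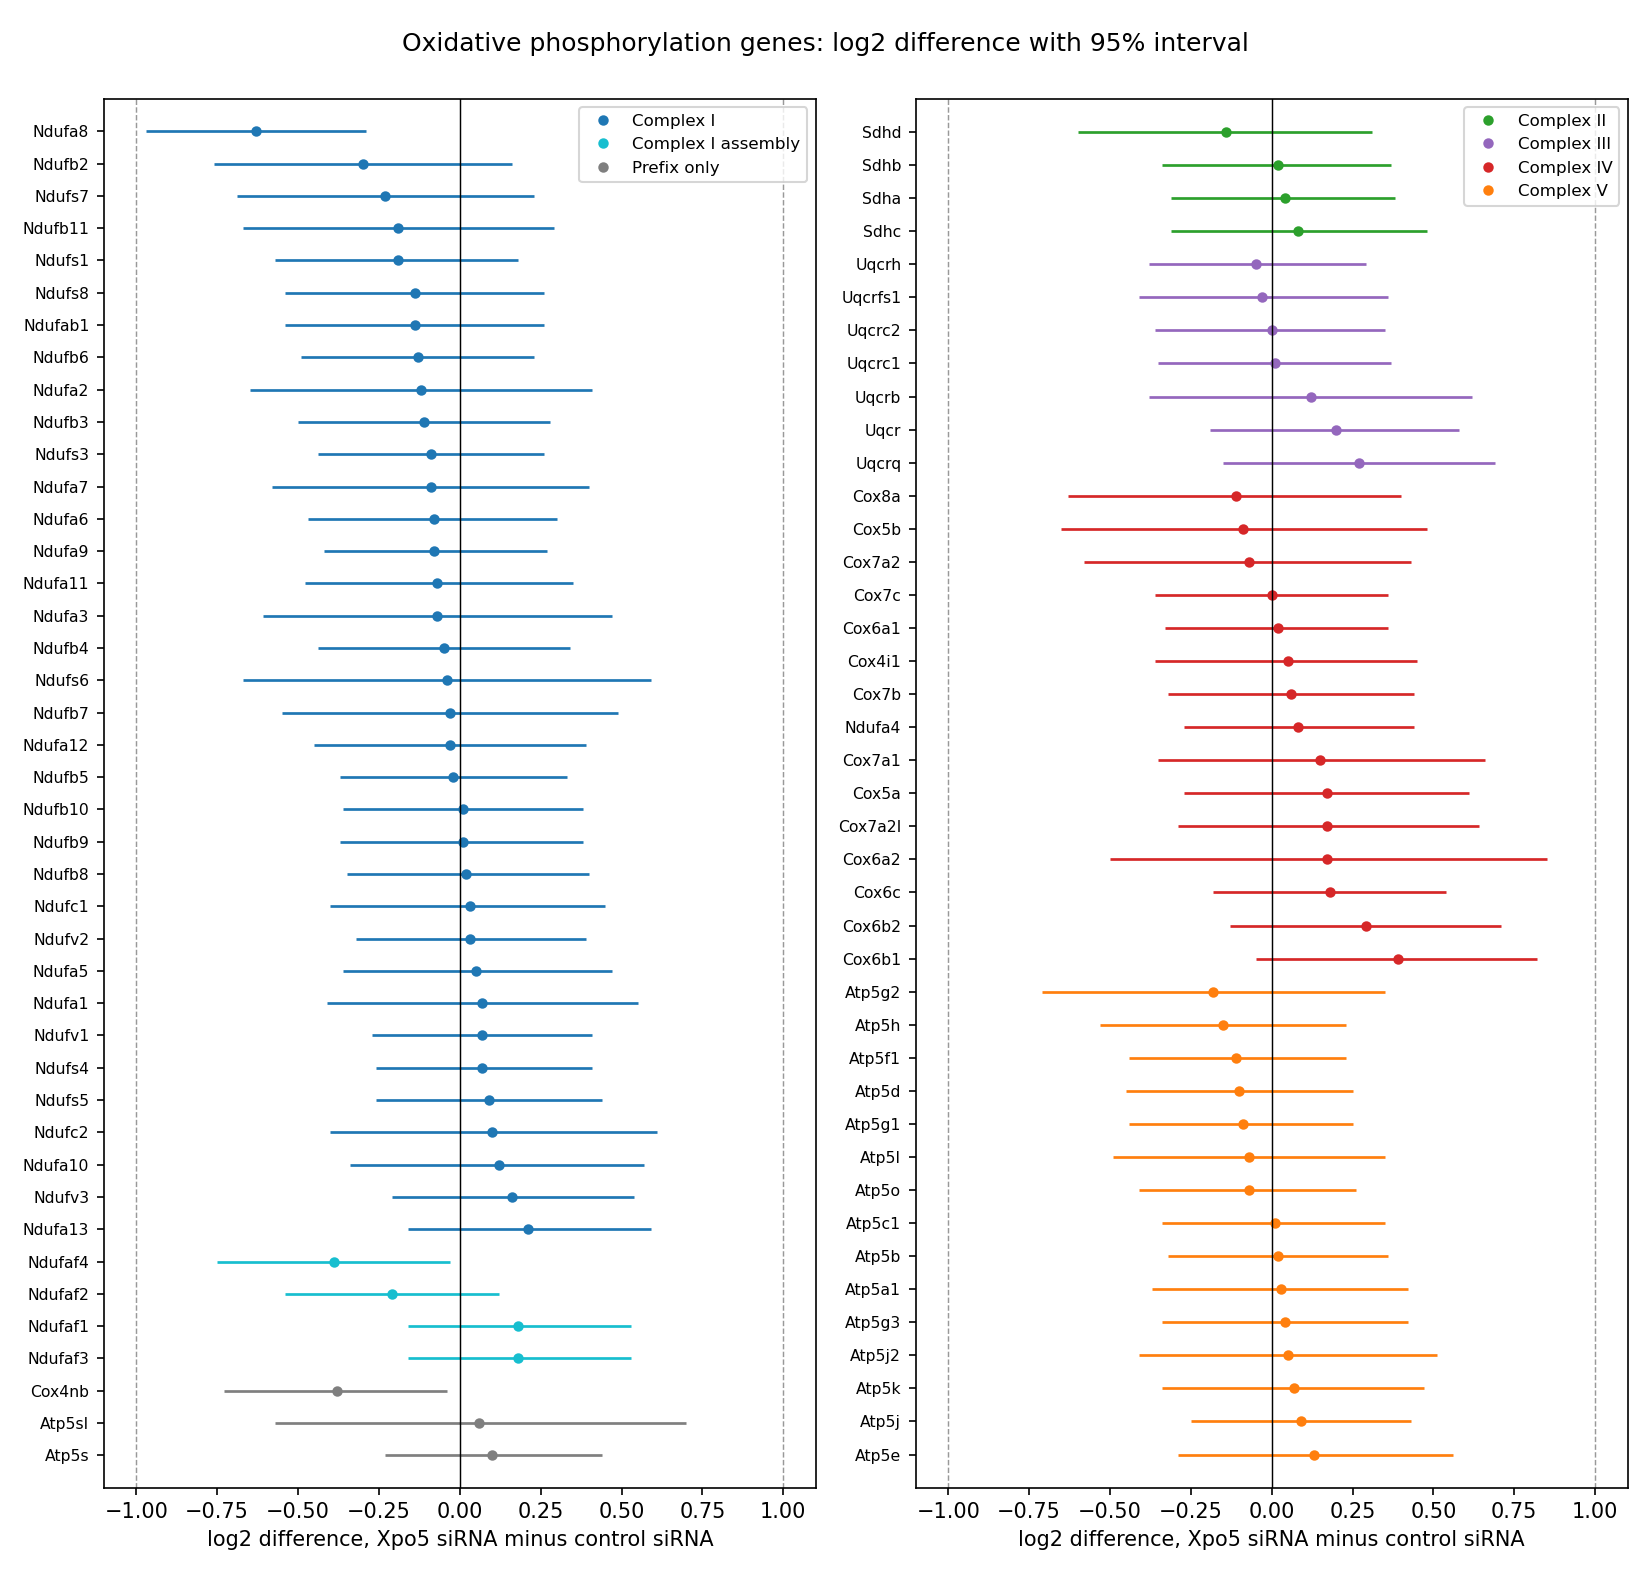
Log2 difference, Xpo5 siRNA minus control siRNA, on the x axis for 83 of the 84 members tested, with its 95% confidence interval as a bar and the complex as colour. The solid line marks 0 and the dashed lines a 2-fold difference. All intervals shown lie between the dashed lines, and Ndufa8 is the member farthest from 0.

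Complex I, NADH dehydrogenase, takes electrons from NADH and is the largest of the complexes. Of its 36 subunits, 0 were called, 21 were lower and 15 higher in the estimates. Their median difference was -0.04, at -0.09 in replicate 1 and 0.02 in replicate 2. The 7 nuclear catalytic core subunits had a median of -0.09 and the 29 accessory subunits one of -0.03. Without control siRNA replicate 1 the median of the 36 was 0.04, and without control siRNA replicate 2 it was -0.14, so that its sign depended on single arrays.

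Ndufa8, an accessory subunit with cysteine-rich CHCH domains, was the member with the smallest p. Its level was 3.74 and 3.65 in Xpo5 siRNA arrays and 4.35 and 4.30 in control siRNA arrays. Both Xpo5 siRNA arrays lay below both control arrays, by more than the gap of at most 0.09 between replicates. The difference was -0.63 ± 0.13 (95% interval -0.97 to -0.29), or 64.6% of control, with an unadjusted p of 0.00526 and a limma adjusted p of 0.223. It was -0.62 in replicate 1 and -0.65 in replicate 2, and -0.70 and -0.56 within the 2 slides, each of which held 1 array of each group. Its probe lies on mm9 at chr2:35891854-35891910. A dimmer probe at chr2:35891871-35891930 gave -0.56, with 2.91 and 2.84 in Xpo5 siRNA arrays and 3.41 and 3.46 in control siRNA arrays, but the 2 probes share 40 positions and do not report on different parts of the transcript.

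The subunits around the flavin and the iron-sulfur clusters, which carry the electrons, showed smaller differences. Ndufs1, which holds several of these clusters, was at 4.02 and 3.95 in Xpo5 siRNA arrays and 4.27 and 4.08 in control siRNA arrays, a difference of -0.19 ± 0.14. Ndufs7, the subunit of the last cluster before ubiquinone, was at 4.61 and 4.42 in Xpo5 siRNA arrays and 4.91 and 4.58 in control siRNA arrays, and these groups overlapped. Ndufv1, which binds NADH and the flavin, was at 4.67 and 4.75 in Xpo5 siRNA arrays and 4.62 and 4.67 in control siRNA arrays, a difference of 0.07 ± 0.13. The adjusted p of these 3 genes was between 0.61 and 0.846.

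Among the accessory subunits, Ndufb2 was at 5.54 and 5.24 in Xpo5 siRNA arrays and 5.81 and 5.58 in control siRNA arrays (-0.30 ± 0.18, adjusted p of 0.522), and the groups did not overlap. Ndufa13, also known as the cell death regulator GRIM-19, was at 7.04 and 7.06 in Xpo5 siRNA arrays and 6.94 and 6.73 in control siRNA arrays (0.21 ± 0.15, adjusted p of 0.574). The groups did not overlap for 9 of the 36 complex I subunits, 4 higher and 5 lower, beside 46.1% of all genes.

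The 4 assembly factors with an Ndufaf name, which build complex I but are absent from the finished enzyme, went both ways in the estimates. Ndufaf4 was at 2.06 and 2.23 in Xpo5 siRNA arrays and at 2.56 and 2.52 in control siRNA arrays. Both Xpo5 siRNA arrays lay lower, with a difference of -0.39 ± 0.14 and a limma adjusted p of 0.348. The other probes of Ndufaf4, both dimmer and elsewhere in the gene, gave -0.46 and -0.49. The last was at -5.44 and -5.24 in Xpo5 siRNA arrays and -4.68 and -5.03 in control siRNA arrays. Similarly dim probes of Atp5f1 (-0.82), Ndufv2 (-0.43), Ndufc1 (-0.39), Atp5sl (-0.39) and Ndufb2 (-0.02) were lower as well. Ndufaf2 was at 2.72 and 2.72 in Xpo5 siRNA arrays and 2.94 and 2.91 in control siRNA arrays, a difference of -0.21 ± 0.13. Ndufaf1 and Ndufaf3 each had a difference of 0.18 ± 0.13, with the Xpo5 siRNA arrays above both control arrays. For all 4 genes the groups did not overlap, 2 higher and 2 lower, beside 46.1% of all genes in either direction, and 0 of the 4 were called.

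The promoters of the members were searched for motifs of the factors known to act on these genes. RefSeq promoters on GRCm38.p6, from 250 bases before to 50 after the start, were at hand for 73 of the 88 members. The promoters of Ndufa8 (chr2:36049289-36049588, minus strand), Ndufaf4 (chr4:24897833-24898132, plus strand), Cox6b1 (chr7:30626065-30626364, minus strand) and Atp5c1 (chr2:10080383-10080682, minus strand) are shown 5' to 3'. Ndufa8 and Ndufaf4 were the subunit and the assembly factor with the smallest p, Cox6b1 was the member with the highest difference, and Atp5c1 was the NRF1-motif member with a difference nearest 0 (0.01). Capitals mark a match to the NRF1 motif (GCGCA, any base, GCGC) in Ndufaf4, Atp5c1 and, on the opposite strand, Ndufa8 and to the ETS motif CCGGAAG, on the opposite strand, in Cox6b1.
Ndufa8: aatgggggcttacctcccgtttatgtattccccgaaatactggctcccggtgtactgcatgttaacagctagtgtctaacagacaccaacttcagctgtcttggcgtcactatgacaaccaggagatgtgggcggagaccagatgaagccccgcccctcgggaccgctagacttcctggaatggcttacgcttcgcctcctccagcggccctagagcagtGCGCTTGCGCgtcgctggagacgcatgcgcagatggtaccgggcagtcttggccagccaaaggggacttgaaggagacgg
Ndufaf4: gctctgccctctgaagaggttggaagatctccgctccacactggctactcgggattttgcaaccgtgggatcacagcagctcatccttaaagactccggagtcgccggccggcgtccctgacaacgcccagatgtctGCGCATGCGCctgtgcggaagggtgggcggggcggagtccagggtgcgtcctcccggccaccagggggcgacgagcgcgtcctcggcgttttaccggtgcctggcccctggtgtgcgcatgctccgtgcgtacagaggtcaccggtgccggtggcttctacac
Cox6b1: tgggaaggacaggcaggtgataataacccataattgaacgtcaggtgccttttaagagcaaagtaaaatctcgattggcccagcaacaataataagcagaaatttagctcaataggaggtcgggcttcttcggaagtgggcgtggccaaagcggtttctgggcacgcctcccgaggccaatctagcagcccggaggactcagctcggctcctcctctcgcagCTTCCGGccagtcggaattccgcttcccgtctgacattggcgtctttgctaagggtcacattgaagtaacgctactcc
Atp5c1: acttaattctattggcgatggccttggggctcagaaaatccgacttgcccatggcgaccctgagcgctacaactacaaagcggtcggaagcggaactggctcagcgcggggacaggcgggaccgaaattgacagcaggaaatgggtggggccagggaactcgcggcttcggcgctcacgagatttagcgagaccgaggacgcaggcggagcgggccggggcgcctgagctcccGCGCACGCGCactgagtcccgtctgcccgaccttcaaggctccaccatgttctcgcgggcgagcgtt

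The NRF1 motif, on either strand, was in 18 of the 73 member promoters (24.7%), against 5.19% of the promoters of all 27025 genes and 10.6% of those of the genes tested here. The ETS motif was in 17 (23.3%), against 9.93% of all genes and 18.6% of the genes tested, and the YY1 motif AANATGGCG in 11 (15.1%), against 2.76% and 5.42%. CCAAT was in 45.2% of member promoters, against 41.1% of all genes and 42.7% of the genes tested. The GC box GGGCGG was in 45.2% of member promoters, which was above the 38.2% of all genes and below the 66.4% of the genes tested. Of the 25 NRF1 matches in the members 0 overlapped a match to another of the 5 motifs, and of the 20 ETS matches 1 did. NRF1 motifs were in 7 of 32 complex I promoters, 6 of 14 complex V promoters and 1 of 14 complex IV promoters. They were also in 2 of 3 complex II promoters, 1 of 4 of complex III, 1 of 4 of the assembly factors and 0 of 2 of the non-subunits.

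Members with and without these motifs had similar differences. The 18 with an NRF1 motif had a median of -0.04 with 10 lower, and the 53 tested without it one of 0.02 with 24 lower. For the ETS motif the medians were -0.03 with it and 0.01 without it, and for YY1 0.02 and 0.00. A match is a stretch of letters in this window and was not set against any binding data.

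Complex II, succinate dehydrogenase, is the entry point from the citric acid cycle and the complex made of nuclear subunits alone. All 4 subunits were tested, 0 were called, and the groups overlapped for each. Sdha, the flavoprotein, was at 2.02 and 1.92 in Xpo5 siRNA arrays and 1.90 and 1.97 in control siRNA arrays (0.04 ± 0.13). Sdhb, the iron-sulfur subunit, was at 3.62 and 3.65 in Xpo5 siRNA arrays and 3.54 and 3.69 in control siRNA arrays (0.02 ± 0.14). Of the membrane anchors, Sdhc had a difference of 0.08 ± 0.15 and Sdhd one of -0.14 ± 0.18. In the 95% intervals of these 4 genes, the lowest bound was -0.60 and the highest 0.48.

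Complex III, the cytochrome bc1 complex, passes electrons from ubiquinol to cytochrome c. Of its 7 members 0 were called, 4 were higher and 3 lower, with a median of 0.01. The core proteins Uqcrc1 (0.01 ± 0.14) and Uqcrc2 (0.00 ± 0.14) and the Rieske iron-sulfur protein Uqcrfs1 (-0.03 ± 0.15) had overlapping groups. The 4 small subunits had a median of 0.16. Among them Uqcrq was at 7.35 and 7.60 in Xpo5 siRNA arrays and 7.30 and 7.11 in control siRNA arrays, a difference of 0.27 ± 0.16 that was 0.05 in replicate 1 and 0.49 in replicate 2. Its other, far dimmer probe gave -0.40, so that the direction for this gene differed between probes. Uqcr (now Uqcr11) was at 6.44 and 6.33 in Xpo5 siRNA arrays and 6.29 and 6.08 in control siRNA arrays (0.20 ± 0.15, adjusted p of 0.612).

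Complex IV, cytochrome c oxidase, reduces oxygen to water. Of the 15 subunits tested 12 were higher in the estimates (80%), 3 lower and 0 called, with a median of 0.08, which was 0.02 in replicate 1 and 0.13 in replicate 2. Under median scaling 7 were higher and 8 lower with a median of -0.02. The gap of 0.08 to the median of all genes cannot change under that scaling. Without control siRNA replicate 2 the median was -0.04, again with 7 higher and 8 lower. In both replicates 7 were higher (46.7%, beside 35.5% of all genes) and 0 lower. For 3 the groups did not overlap, all higher (20%, beside 23.6% of all genes). The difference between complexes was not tested.

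Cox6b1, a small subunit that bridges the monomers of the complex IV dimer, was at 3.57 and 3.77 in Xpo5 siRNA arrays and at 3.42 and 3.15 in control siRNA arrays. Both Xpo5 siRNA arrays lay above both control arrays. The difference was 0.39 ± 0.17 (95% interval -0.05 to 0.82), with an unadjusted p of 0.0709 and a limma adjusted p of 0.421, and was 0.15 in replicate 1 and 0.62 in replicate 2. Cox6c was at 6.00 and 5.84 in Xpo5 siRNA arrays and 5.75 and 5.73 in control siRNA arrays (0.18 ± 0.14), also without overlap. Cox5a, a subunit on the matrix side, was at 6.65 and 6.93 in Xpo5 siRNA arrays and 6.52 and 6.72 in control siRNA arrays (0.17 ± 0.17), with overlap. Cox4i1, the main form of the regulatory subunit, was at 6.90 and 6.77 in Xpo5 siRNA arrays and 6.91 and 6.67 in control siRNA arrays (0.05 ± 0.15). The lower members were Cox8a (-0.11 ± 0.20), Cox5b (-0.09 ± 0.22) and Cox7a2 (-0.07 ± 0.19). Cox7a2l had a difference of 0.17 ± 0.18, Ndufa4 one of 0.08 ± 0.14 and Cox6a1 one of 0.02 ± 0.13.

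**Figure D2:**
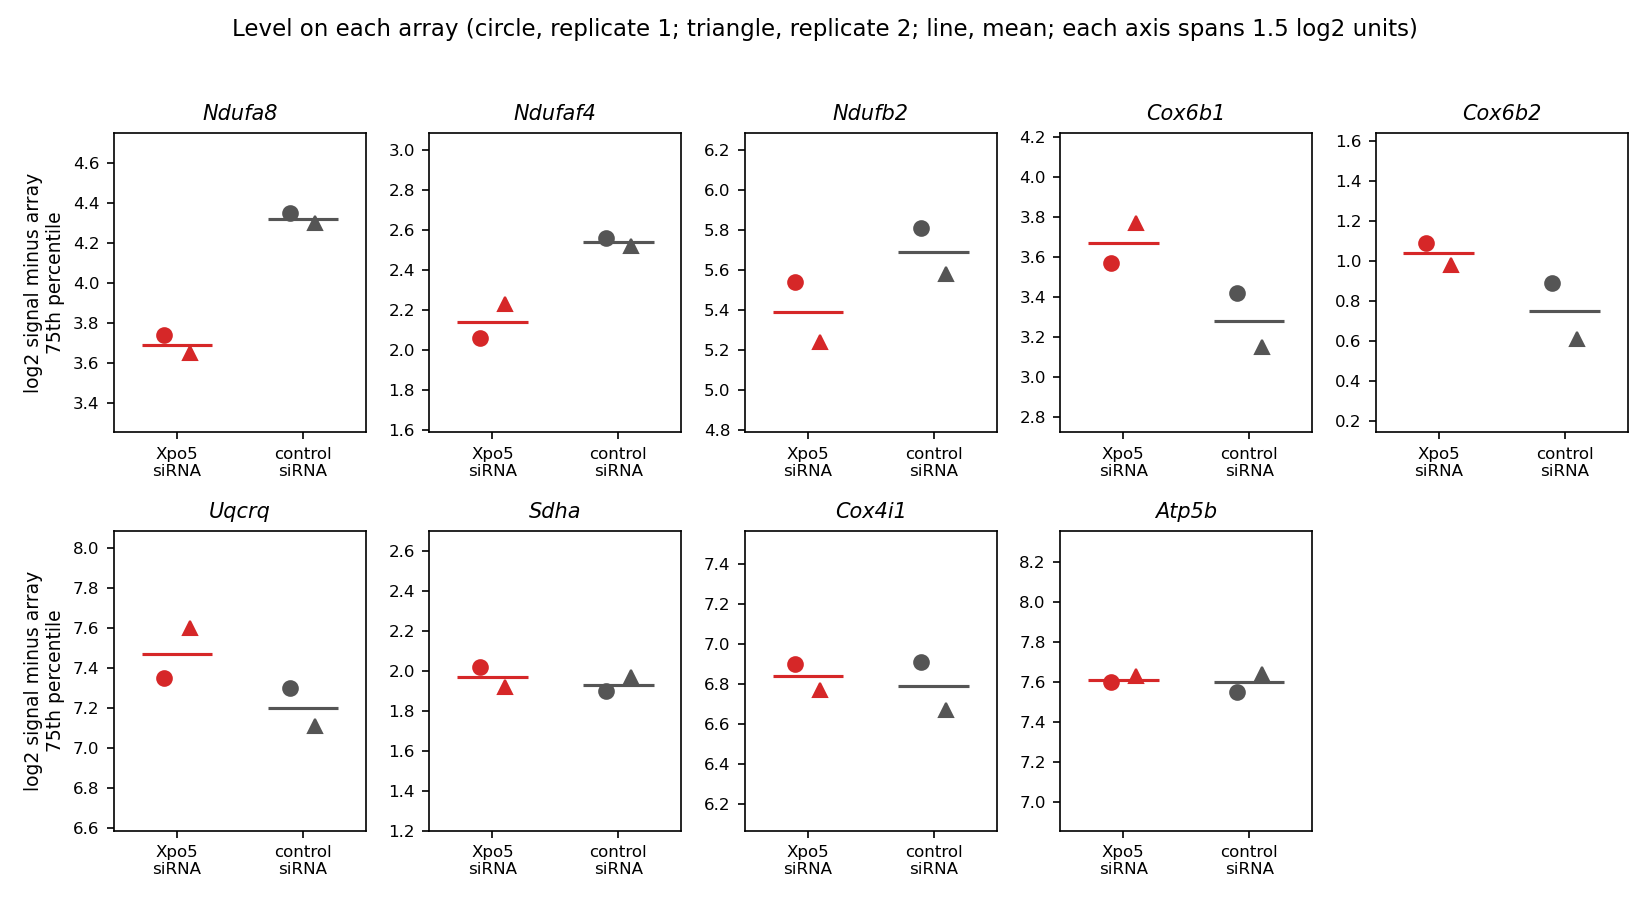
Level (log2 processed signal minus the 75th percentile of the array) of 9 members on each array, Xpo5 siRNA in red on the left and control siRNA in grey on the right of each panel, with circles for replicate 1, triangles for replicate 2 and lines for the mean. Ndufa8, Ndufaf4 and Ndufb2 lie lower and Cox6b1, Cox6b2 and Uqcrq higher without overlap, and Sdha, Cox4i1 and Atp5b overlap.

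Several complex IV subunits exist as tissue forms, and the array held 7 that are restricted in adult tissues. The lung form Cox4i2, the testis forms Cox7b2 and Cox8c and the muscle form Cox8b were not well above background on both arrays of either group and were not tested. Their levels were between -8.44 and -5.09 over all 4 arrays. The muscle form Cox6a2 was at -1.07 and -1.38 in Xpo5 siRNA arrays and -1.08 and -1.71 in control siRNA arrays. The muscle form Cox7a1 was at -0.86 and -0.97 in Xpo5 siRNA arrays and -0.84 and -1.28 in control siRNA arrays. Both overlapped between the groups. Summed signals of the 8 muscle markers tested were 77.9 and 109 times the 75th percentile in Xpo5 siRNA arrays and 56.1 and 94.5 times in control siRNA arrays, mostly from the actins Actc1 and Acta1, with Myod1, Myog, Ckm and Mb not well above background. Of these 8 markers 6 were higher and 2 lower. The slow muscle myosin Myh7 was at -2.92 and -2.96 in Xpo5 siRNA arrays and -4.73 and -4.95 in control siRNA arrays, a difference of 1.90 ± 0.15 with a limma adjusted p of 0.109. Tnni1 (0.48 ± 0.17) was also higher without overlap, as were Ttn and Myh1, for which 0 of the 2 control siRNA arrays were well above background. Tnnt2 (-0.26 ± 0.14) and Tnnc1 (-0.28 ± 0.14) were lower without overlap, and 0 of the 8 were called. Their part in the isoform values was not tested. The testis form Cox6b2 was at 1.09 and 0.98 in Xpo5 siRNA arrays and 0.89 and 0.61 in control siRNA arrays, a difference of 0.29 ± 0.16 with an adjusted p of 0.503. The 3 germ cell markers tested summed to 0.161 and 0.140 times the 75th percentile in Xpo5 siRNA arrays and 0.162 and 0.138 times in control siRNA arrays. Among them Ddx4 (0.46 ± 0.13) was higher without overlap, with 0 control siRNA arrays well above background. Prm1 (-0.19 ± 0.27) and Tnp1 (0.05 ± 0.14) overlapped, and 0 of the 3 were called. The part of these markers in the Cox6b2 value was not tested.

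Complex V, ATP synthase, had the narrowest spread of differences, with a standard deviation of 0.09 over its 15 subunits. In the estimates 8 were higher and 7 lower, 0 were called, and the median was 0.01. The 5 subunits of the F1 catalytic head had a median of 0.02 and the 10 of the membrane part and stalk one of -0.07. The catalytic beta subunit Atp5b was at 7.60 and 7.63 in Xpo5 siRNA arrays and 7.55 and 7.64 in control siRNA arrays, a difference of 0.02 ± 0.13. The alpha subunit Atp5a1 had a difference of 0.03 ± 0.15 and the gamma subunit Atp5c1 one of 0.01 ± 0.13. The 3 genes of the proton-carrying c-ring protein had differences of -0.09 ± 0.13 (Atp5g1), -0.18 ± 0.20 (Atp5g2) and 0.04 ± 0.15 (Atp5g3). For Atp5d, Atp5f1 (now Atp5pb), Atp5g1, Atp5h and Atp5o both Xpo5 siRNA arrays lay below both control arrays, by differences of -0.15 to -0.07, and for Atp5j both lay above (0.09). The 6 of 15 without overlap stand beside 46.1% of all genes. In 95% intervals the lowest bound over the 15 subunits was -0.71, for Atp5g2, and 14 of the 15 intervals lay within 1.5-fold.

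Between replicates, the members' median gap was larger than their median difference between the siRNAs. Replicate 1 was above replicate 2 for 61 of the 84 members in Xpo5 siRNA arrays and for 63 in control siRNA arrays, with median gaps of 0.08 and 0.13. The median levels of the 84 were 4.94 and 4.81 in Xpo5 siRNA arrays and 5.00 and 4.75 in control siRNA arrays. The gap in control siRNA arrays was 0.21 for complex I and 0.24 for complex IV, beside 0.07 for complex V and for all genes. Over slides, the members' median difference was -0.12 on the slide with Xpo5 siRNA replicate 2 and control siRNA replicate 1 and 0.10 on the slide with Xpo5 siRNA replicate 1 and control siRNA replicate 2. For complex I these values were -0.20 and 0.11 and for complex IV -0.02 and 0.20. Each slide held arrays of different replicate numbers, so that slide and replicate gaps enter the same 4 arrays.

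**Figure D3:**
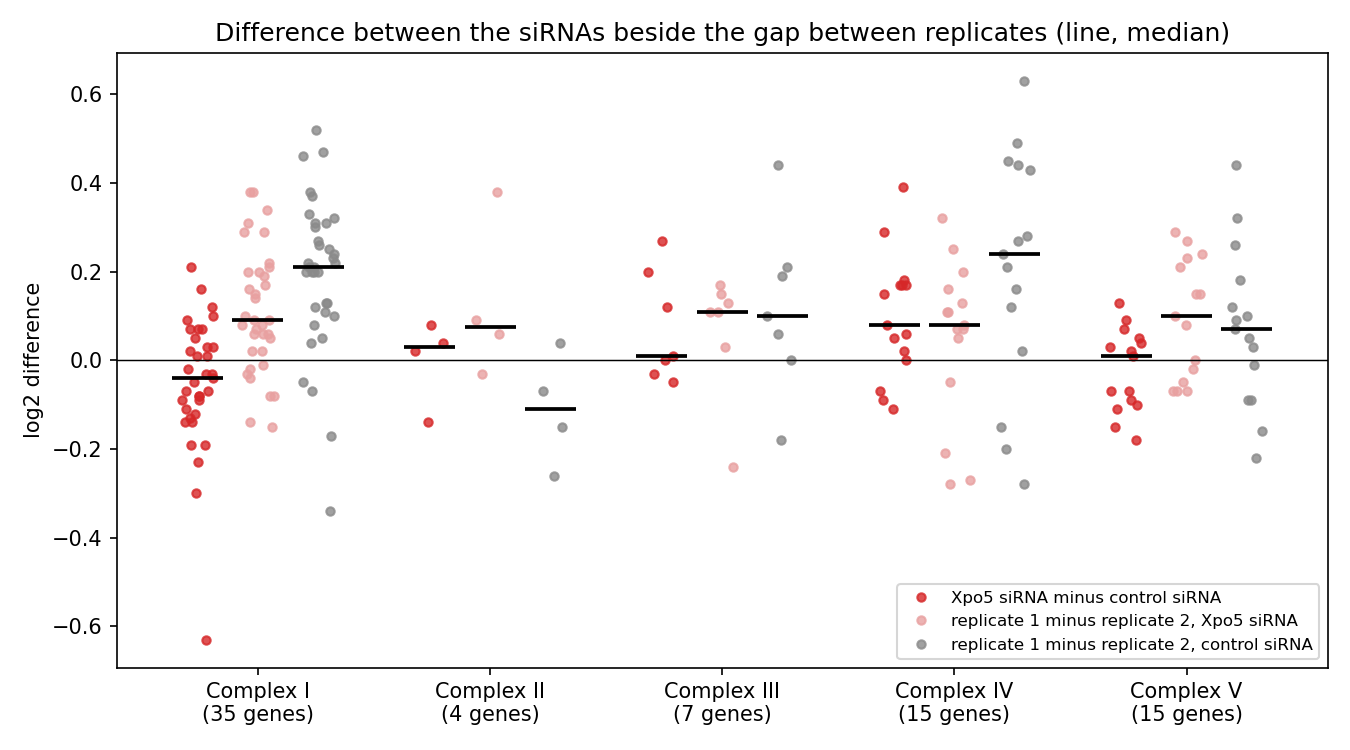
Log2 differences (y axis) of the members of complexes I to V, 1 point per gene for 76 of the 77 subunits tested, with the median as a line. Red points are Xpo5 siRNA minus control siRNA, and pale red and grey points are replicate 1 minus replicate 2 in Xpo5 siRNA and control siRNA arrays. The medians between siRNAs run from -0.04 to 0.08, and those between control siRNA replicates from -0.11 to 0.24.

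Within replicates, 24 of the 84 members were higher in both and 25 lower in both, so that 49 shared a sign (58.3%, beside 70.4% of all genes). Ndufa8 was the only member beyond 0.5 in both replicates. The complex medians kept no common sign over the replicates for complexes I, II, III and V, with 0.10 and -0.06 for complex II, 0.05 and -0.02 for complex III and 0.01 and -0.05 for complex V.

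**Figure D4:**
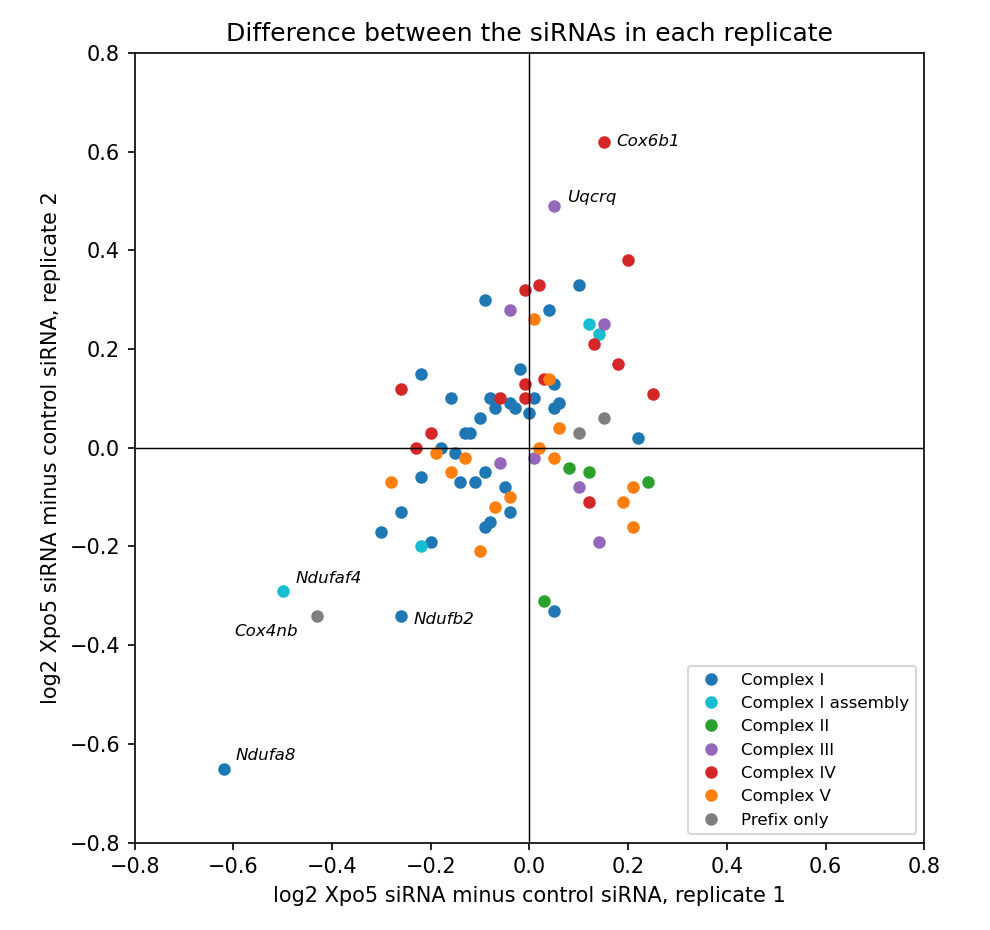
Log2 difference, Xpo5 siRNA minus control siRNA, in replicate 1 (x axis) and replicate 2 (y axis), 1 point for each of 83 members, coloured by complex. Ndufa8 lies at -0.62 and -0.65, apart from the others, and the remaining members lie around 0, with Cox6b1 and Uqcrq high in replicate 2.

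Probes of the same gene bear on how far a value speaks for the gene. Of the 27 members with more than 1 probe above background, 16 had differences of the same sign in all of them and 11 did not. Ndufab1, the mitochondrial acyl carrier protein that is also a complex I subunit, had -0.14 with its brightest probe and -0.34 and -0.37 with 2 others. Atp5b had 0.30 and 0.31 with 2 dimmer probes upstream of the brightest one. The dimmest was at 1.76 and 2.39 in Xpo5 siRNA arrays and 0.94 and 2.58 in control siRNA arrays, so that replicate 1 was low in both groups. Sdha had 0.04, 0.05 and -0.20. Opposite signs were also seen for Atp5f1, Atp5h, Atp5j2, Ndufa11, Ndufb8, Ndufc1, Ndufv2 and Uqcrq and for the non-subunits Atp5s and Atp5sl.

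Cox4nb, now Emc8, a subunit of the endoplasmic reticulum membrane complex with no role in complex IV, was among the 3 names with an unadjusted p under 0.05. It was at 2.05 and 2.02 in Xpo5 siRNA arrays and 2.48 and 2.36 in control siRNA arrays, with a difference of -0.38 ± 0.13 and an adjusted p of 0.344. Its dimmer probe gave -0.29.

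The genes around the respiratory chain were read from lists of the pathway. None of the lists held a called gene by limma, and the counts at an unadjusted p under 0.05 are given with each. They stand beside 13.2% of all genes at that level. In the estimates 49.4% of all genes were lower. Of 45 assembly factors outside the name rule 19 were higher and 26 lower (57.8%), with a median of -0.06. At an unadjusted p under 0.05 there were 2 (4.44%), both higher. Cox18, a translocase that helps to insert the mitochondrially made COX2 protein into the membrane, was at 3.30 and 3.25 in Xpo5 siRNA arrays and 2.53 and 2.66 in control siRNA arrays. This difference of 0.68 ± 0.14 had an unadjusted p of 0.00432 and an adjusted p of 0.214, with no overlap. Uqcc (now Uqcc1), a complex III assembly factor, was at 1.14 and 1.16 in Xpo5 siRNA arrays and 0.82 and 0.65 in control siRNA arrays (0.42 ± 0.14). With the mean of its probes Uqcc had a difference of -0.09. 2310061C15Rik (now Cmc2) was at 2.10 and 1.79 in Xpo5 siRNA arrays and 2.44 and 2.30 in control siRNA arrays (-0.42 ± 0.17).

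Of the 18 regulators of mitochondrial gene expression tested, 13 were lower (72.2%, beside 49.4% of all genes) and 5 higher, with a median of -0.15. At an unadjusted p under 0.05 there were 2 (11.1%, beside 13.2% of all genes), both lower. Tfb2m, the factor that opens mitochondrial promoters for the mitochondrial RNA polymerase, was at -0.29 and -0.48 in Xpo5 siRNA arrays and 0.55 and 0.22 in control siRNA arrays. Its difference of -0.77 ± 0.17 had an unadjusted p of 0.00754 and an adjusted p of 0.233. The coactivator Ppargc1b was at -2.68 and -2.78 in Xpo5 siRNA arrays and -2.27 and -2.42 in control siRNA arrays (-0.39 ± 0.14). Nrf1, the factor of the NRF1 motif, was at -2.30 and -1.92 in Xpo5 siRNA arrays and -1.95 and -1.21 in control siRNA arrays, and the groups overlapped (-0.53 ± 0.30). The 5 higher were the coactivator Ppargc1a (0.50 ± 0.43), 1110002N22Rik (now Tefm, 0.31 ± 0.25), Tfam (0.26 ± 0.25), Mterfd1 (now Mterf3, 0.20 ± 0.32) and Tfb1m (0.06 ± 0.19). The groups overlapped for each of these.

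Of the 18 electron carriers and quinone reductases tested 9 were higher and 9 lower, with a median of 0.00. At an unadjusted p under 0.05 there was 1 (5.56%, beside 13.2% of all genes). That gene was Gpd2, the mitochondrial glycerol phosphate dehydrogenase, at 0.47 and 0.58 in Xpo5 siRNA arrays and 0.87 and 1.04 in control siRNA arrays (-0.43 ± 0.14). Pdss1, which makes the ubiquinone tail, had a difference of -0.40 ± 0.18. Of the 19 genes of the citric acid cycle and pyruvate dehydrogenase 15 were lower (78.9%, beside 49.4% of all genes) and 4 higher. Their median was -0.07, with 0 at that level. The differences nearest the threshold were Suclg2 (-0.33 ± 0.21), Dlst (-0.25 ± 0.17) and Mdh2 (0.19 ± 0.14).

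The array also held 4 messenger RNAs of the mitochondrial genome, and 0 of them had an unadjusted p under 0.05. COX2 was at 9.07 and 9.15 in Xpo5 siRNA arrays and 9.07 and 8.68 in control siRNA arrays (0.24 ± 0.18). ATP6 was at 5.52 and 5.45 in Xpo5 siRNA arrays and 5.65 and 5.77 in control siRNA arrays (-0.23 ± 0.13). CYTB had a difference of -0.20 ± 0.16 and ND4 one of -0.15 ± 0.21. The 5 nuclear genes of these complexes whose names fall outside the rule were all lower in the estimates, with 0 at an unadjusted p under 0.05, from Atpif1, the inhibitor of ATP synthase (-0.24 ± 0.28), and Cyc1, cytochrome c1 (-0.13 ± 0.14), to 1110020P15Rik (now Uqcr10, -0.07 ± 0.14), 2010107E04Rik (now Atp5mpl, -0.04 ± 0.17) and Usmg5 (now Atp5md, -0.02 ± 0.14).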

How the data were processed

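RNA of 4 fibroblast cultures was measured with Cy3 on Agilent arrays of 1 colour, as the labels' protocols state. Scanner files as deposited give each spot's intensity from Agilent Feature Extraction (version 10.5.1.1), background-subtracted and spatially detrended per the file headers. A series-wide table of log2 values was also deposited and was found to be the log2 processed signal moved by 1 constant per array to a median of 5.33 (99.7% to 99.8% of probes within 0.001). It was an alternative only.

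Of 43379 spots per array 77 to 134 outlier spots were left out and 0 were saturated. Log2 processed signals were averaged to 41174 probes, and the 75th percentile of each array was subtracted. A gene name was kept where its brightest probe was well above background, in at least a share of 0.5 of its spots, on both arrays of a group (16922 of 28095 names, 16912 with a value on all arrays). Names are those of the files, and 88 of 88 members matched the RefSeq table of GRCm38.p6. Arrays limit precision by their number.

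Groups were compared with lmFit and eBayes of limma 3.58.1 (R 4.3.3), two-sided, without a block, adjusted by Benjamini-Hochberg over all genes. With 2 arrays against 2 the smallest exact permutation p is 0.333, so no value was tested that way. Run on simulated data with noise drawn independently for each array, the fit returned the planted sizes and called large differences only. Deviations shared between arrays, as seen in these data, were not simulated.

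Named genes are Xpo5, the 5 members of each complex with the smallest p, core subunits and isoforms set by name, the Ndufaf genes, the 5 members farthest from 0 in each direction, up to 3 genes of each related list, and members with a probe of opposite sign. Other genes are named to complete a count. 1 member is counted but not reported here by name or drawn. Members and lists were chosen with earlier results of these data known. Complexes are described by counts and medians and were not tested as sets. Markers of macrophage, muscle and germ cells are given where they bear on members. Those of neural, adipocyte, endothelial and epithelial cells, 3 to 7 tested each, had medians from -0.62 (epithelial) to 0.63 (endothelial). Within-replicate differences pair arrays of the same replicate number, read as the same experiment. Alternatives concerned background correction, scaling, dim probes, choice of probe, naming, variance trend, blocks, left-out arrays and the deposited table.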

Additional observations from a re-analysis of the deposited data

How the results depend on the processing

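Members called numbered 0 under each of the 16 alternatives tried, with 0 to 7 at an unadjusted p under 0.05, beside 3. All genes called, 2 as reported, numbered 9 with quantile normalization, 12 with median scaling or the deposited table, 1 with the mean of probes, an intensity trend or a filter on all 4 arrays, 0 with no filter or normexp, and 0 to 4 with 1 array left out. Xpo5 missed the threshold with no filter (-3.23, adjusted p of 0.342), the slide as a block (-3.23, 0.0607), the mean of probes (-2.55, 0.187) and normexp (-2.08, 0.595), and was -3.25 to -3.20 with 1 array left out. With the replicate number as a replicate block 5 genes (0.0296%) and 0 members were called. Same-numbered arrays deviated together from their group means (r = 0.419 over 16912 genes, which are not independent), but with 2 pairs the numbers are not shown to pair the samples. Median scaling and the deposited table gave medians of -0.10 for the members, -0.14 for complex I, -0.10 for III and V and -0.02 for IV, where that of all genes was -0.10. The mean of probes gave -0.03 for the members and -0.06 for complex V. Leaving out 1 array gave -0.08 to 0.04 for the members, -0.14 to 0.04 for complex I, -0.06 to 0.10 for III, -0.04 to 0.16 for IV and -0.08 to 0.01 for V. Normexp gave -1.21 for the members and -1.24, -1.22, -1.28, -1.02 and -1.16 for complexes I to V. From the median of all genes the members' median then differed by -1.29 and that of complex I by -1.32. Under this setting 78 of the 84 members were lower, among them all 36 of complex I. Normexp reversed Ndufa13 (-0.97), Uqcrq (-0.81), Uqcr (-1.02), Cox6b1 (-0.97), Cox6b2 (-0.11), Cox6c (-0.85), Cox18 (-0.67), Uqcc (-0.06), Mdh2 (-0.98), Ppargc1b (0.86), Nrf1 (0.48) and COX2 (-0.72). Without the spots of uneven local background normexp gave -0.02 for the members and -0.05 for complex III, called 3 genes with 0 members among them, and reversed Ndufs1 (0.01). The mean of probes reversed Uqcrq (-0.06) and Uqcc (-0.09). The cause of these moves was not tested beyond that. Of 1104 values of 69 named genes under the alternatives 15 reversed, 118 changed sign within 1 SE, and 0 passed the threshold. The intensity trend, the blocks and the filters on dim probes leave a gene's difference unchanged, so those values could not reverse or change sign. Median scaling and the deposited table differ little, so these counts overstate how far the signs were put to the test. With 2 arrays a group, Ndufa8 at -0.63 (adjusted p of 0.223) and the muscle marker Myh7 at 1.90 (0.109) missed the threshold, so that differences of the size seen in the members were not detectable as calls.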
